A study of Mus musculus with 40 samples.

Results

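The genes described here are 32 genes of glycolysis, lactate handling and their direct regulators, chosen by name for their place in the pathway, out of 49585 gene rows in the count table. The choice was made with earlier results of these data known. All 32 symbols were found, each as 1 gene row. They were followed in bone marrow progenitors of mice that lack Mbd3, a subunit of the NuRD chromatin remodelling and deacetylase complex, and of control mice. The Mbd3del group comprised 5 mice with both Mbd3 alleles deleted (Del/Del), and the control group comprised 5 mice whose alleles were floxed but intact (Flox/Flox). All 10 mice were of mixed C57BL6/129Ola background and 46 to 51 days old, and the labels name neither a Cre driver nor the cells in which it acts. Each mouse gave 4 sorted populations in order of commitment: HSCs, the haematopoietic stem cells; LMPPs, multipotent progenitors primed for lymphoid fates; ALPs, or all-lymphoid progenitors; and BLPs, lymphoid progenitors biased to the B lineage. This gave 8 groups of 5 libraries, 1 per mouse, each prepared from a pool of sorted cells with Smart-seq2, which copies whole transcripts into cDNA. The labels of the samples and the design text disagree on which populations were pooled at 100 cells and which at 150. The titles of the Mbd3del LMPP libraries name a floxed allele, whereas their genotype fields name a deleted one, and the genotype fields were followed.

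Glycolysis splits glucose into pyruvate, which is either reduced to lactate by lactate dehydrogenase or admitted to mitochondria by pyruvate dehydrogenase. Most steps are catalysed by several isozymes from separate genes, which differ in tissue range and in regulation. Lactate dehydrogenase is a tetramer of A subunits (Ldha), which favour lactate formation, and B subunits (Ldhb), which favour pyruvate formation. Pyruvate dehydrogenase kinases (Pdk1 to Pdk4) inactivate pyruvate dehydrogenase, and in bone marrow stem cells they are known as part of a glycolytic state linked to the hypoxia-inducible factor HIF-1α, encoded by Hif1a.

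The libraries held 2974305 to 9082610 gene counts and 12845 to 15745 detected genes, and mitochondrial genes took 2.35% to 7.75% of gene counts. Levels are given as CPM, a gene's counts scaled to the library's total gene counts, and 3 counts corresponded to 0.330 to 1.01 CPM, depending on the library. Mbd3 was at 0 to 3.24 CPM in the 20 Mbd3del libraries and at 8.18 to 165 CPM in the 20 control libraries, without overlap. The 8 stem cell markers summed to 2017 to 3128 CPM in HSCs of Mbd3del mice and 1798 to 2535 CPM in those of controls, and to 47.5 to 143 CPM in BLPs of Mbd3del mice and 91.6 to 215 CPM in those of controls. The 8 lymphoid markers summed to 50.4 to 109 CPM in HSCs of Mbd3del mice and 36.4 to 97.4 CPM in those of controls, and to 12869 to 18520.1 CPM in BLPs of Mbd3del mice and 11169 to 20120.4 CPM in those of controls. The libraries of control mouse10372 and mouse10381 went against their labelled sex in Xist and Ddx3y, so comparisons with control libraries were also made without these mice. The 32 genes together took 0.146% to 0.546% of gene counts. Within 6 of the 8 groups the library with the lowest summed level of these genes was also the one with the highest mitochondrial share, and within 6 of 8 the highest was the one with the lowest. The part of this in the results was not tested. Because each library pools cells, fewer cells expressing a gene and less of its RNA per cell cannot be told apart.

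Per kilobase of exon, which allows genes to be compared with each other, a few members carried most of the signal (the map of mean level per kilobase). In HSCs the highest, per kilobase of all annotated exons, were Aldoa, encoding aldolase A, at a mean of 279 CPM per kb in Mbd3del and 273 in control, and Ldhb at 209.6 in Mbd3del and 246 in control. Ldha followed at 152 CPM per kb in Mbd3del HSCs and 139 in control HSCs. The place of Ldhb depends on the length used, since per kilobase of the longest transcript Ldhb was at 252 and Ldha at 277 CPM in Mbd3del HSCs, and Ldhb at 296 and Ldha at 254 CPM in control HSCs. In ALPs and BLPs Ldha ranked first by either length. In BLPs it was at 102 CPM per kb in Mbd3del and 105 in control, while Aldoa was at 70.7 in Mbd3del and 98.9 in control and Ldhb at 52.9 in Mbd3del and 40.3 in control. Triosephosphate isomerase (Tpi1), which interconverts the products of aldolase, stayed among the 4 highest members, at group means of 75.1 to 163 CPM per kb. Slc16a3, encoding the lactate exporter MCT4, was close to 0, with group means of at most 0.323 CPM per kb. Pdk4 had group means of 0 to 2.15 CPM per kb, the highest in control HSCs.

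**Figure D1:**
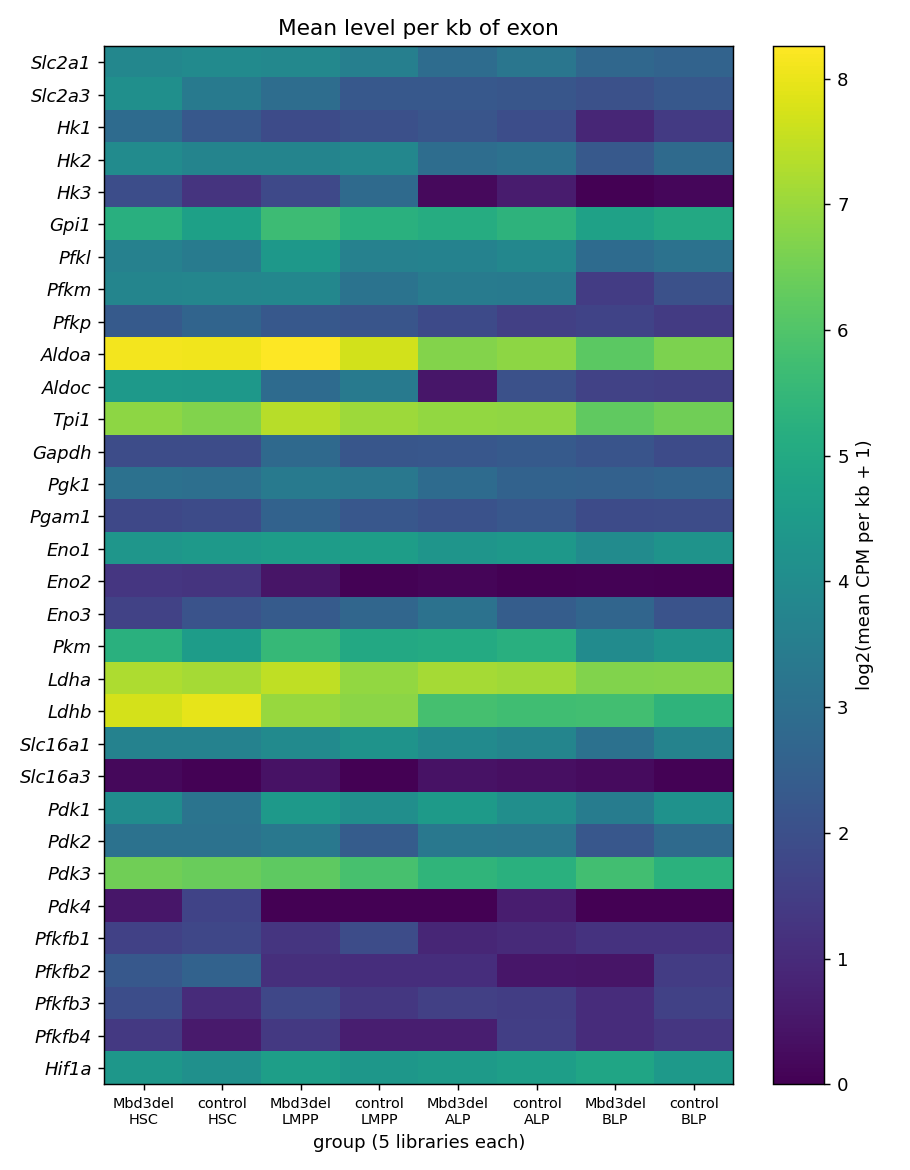
Mean level of the 32 genes in the 8 groups (columns, 5 libraries each), as log2(mean CPM per kb of exon + 1), in pathway order from glucose uptake at the top to Hif1a at the bottom. Aldoa, Tpi1, Ldha and Ldhb are the brightest rows, and Ldhb and Aldoa darken towards BLPs while Ldha changes less.

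Some of these counts are uncertain because near-identical copies exist elsewhere in the genome. Of the 50-base windows in the longest Gapdh mRNA, only 17.5% occurred in no other annotated transcript, and windows were shared with 215 annotated pseudogenes. The same share was 27.8% for Eno1 (enolase 1), 32.04% for Pgk1 (phosphoglycerate kinase 1), 58.5% for Pgam1 (phosphoglycerate mutase 1), 65.6% for Pkm, 72.99% for Ldhb, 83.4% for Ldha and 86.5% for Aldoa. Gapdh, the glyceraldehyde-3-phosphate dehydrogenase gene, had group means of only 11.2 to 25.3 CPM, Pgk1 11.1 to 21.4 CPM and Pgam1 4.93 to 9.97 CPM. The sources used here do not say how reads with several alignments were counted, so the levels of Gapdh, Eno1, Pgk1 and Pgam1 relative to the other members are not interpreted. The M1 and M2 splice forms of Pkm, the pyruvate kinase gene, share 1 row in the table and cannot be separated, so isoform choice is described between genes only. The strand setting is likewise not stated, and reads from Gpi1, Pfkp, Pfkm, Pfkfb2, Pkm, Hif1a and Hk1 may include those of genes that overlap their exons.

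The hypoxia-inducible factor is known to bind the core letters ACGTG or GCGTG, and promoter windows from 250 bases before to 50 bases after the annotated start were read from RefSeq (GRCm38.p6). These windows are shown for the lactate dehydrogenase and pyruvate dehydrogenase kinase genes whose balance is described next. Ldhb was taken by a fixed rule, which required a match, so that it holds a match was set by the rule. The other 3 were chosen after their values were seen. Capitals mark ACGTG or GCGTG on either strand (CACGT or CACGC on the strand shown), and matches that overlap, as in CACGTG, form longer capital runs. The windows are chr7:46845554-46845853 (plus strand) for Ldha, chr6:142507908-142508207 (minus strand) for Ldhb, chr2:71872974-71873273 (plus strand) for Pdk1 and chrX:93832101-93832400 (minus strand) for Pdk3.
Ldha: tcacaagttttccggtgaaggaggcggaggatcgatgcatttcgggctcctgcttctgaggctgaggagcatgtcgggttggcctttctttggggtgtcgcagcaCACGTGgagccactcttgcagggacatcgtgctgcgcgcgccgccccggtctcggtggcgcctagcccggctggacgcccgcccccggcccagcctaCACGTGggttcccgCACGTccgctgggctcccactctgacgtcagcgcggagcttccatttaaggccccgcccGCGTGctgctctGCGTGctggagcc
Ldhb: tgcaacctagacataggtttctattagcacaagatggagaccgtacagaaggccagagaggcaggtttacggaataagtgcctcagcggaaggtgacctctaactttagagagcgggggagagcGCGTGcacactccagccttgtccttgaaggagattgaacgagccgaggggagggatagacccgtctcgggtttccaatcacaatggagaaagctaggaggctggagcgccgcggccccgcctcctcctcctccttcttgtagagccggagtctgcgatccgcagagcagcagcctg
Pdk1: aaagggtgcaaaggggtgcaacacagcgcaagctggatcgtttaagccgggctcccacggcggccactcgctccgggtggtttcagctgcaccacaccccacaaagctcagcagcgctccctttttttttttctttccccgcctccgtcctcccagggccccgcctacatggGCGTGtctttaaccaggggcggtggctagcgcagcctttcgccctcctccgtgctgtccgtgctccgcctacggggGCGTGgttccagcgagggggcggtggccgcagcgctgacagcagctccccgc
Pdk3: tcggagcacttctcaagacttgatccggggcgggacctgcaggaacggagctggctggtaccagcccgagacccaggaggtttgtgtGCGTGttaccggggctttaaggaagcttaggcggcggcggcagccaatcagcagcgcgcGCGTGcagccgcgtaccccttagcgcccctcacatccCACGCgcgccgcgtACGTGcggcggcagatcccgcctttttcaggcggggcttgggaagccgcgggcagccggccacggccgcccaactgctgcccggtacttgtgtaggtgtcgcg
In the windows shown, Ldha held 7 matches, counting overlapping ones, of which 5 were ACGTG. Ldhb held 1, Pdk1 2 and Pdk3 4. Ldha and Pdk1 each have a second window, at another annotated start, which held 2 matches for Ldha, none of them ACGTG, and 0 for Pdk1. A window was present for 31 of the 32 members (all but Slc2a3), and 28 of them (90.3%) held a match in at least 1 window, against 46.7% of 27025 genes with a window. By window, since many members have several, 76.00% of 50 member windows held a match, against 43.8% of all 32851 windows. CACGTG, which contains ACGTG, was held by 22.6% of the 31 members and 8.09% of all genes with a window. The genes compared were not matched to the members in base composition or expression. These are descriptions of letters and say nothing of binding in these cells.

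Between the ends of the path, BLPs against HSCs, several members were lower in BLPs in both genotypes, while Ldha, Tpi1 and Hif1a did not pass the test by edgeR in either (Hif1a did in Mbd3del without the BLP library of mouse10376). In Mbd3del mice 8 of 28 members tested were lower in BLPs and 0 were higher at an adjusted p under 0.05 by edgeR, against 9.83% of all genes called lower, 9.48% called higher and 19.3% in either direction. In control mice 5 of 29 were lower and 1 was higher, against 8.33% of all genes called lower, 7.34% called higher and 15.7% in either direction. The median log2 fold change of the members tested was -0.59 in Mbd3del and -0.30 in control, against -0.11 in Mbd3del and -0.01 in control over all genes tested. In CPM, 8 of 32 members had every Mbd3del BLP library below every Mbd3del HSC library, where 15.8% of all genes were separate in either direction. In control 7 of 31 lay below and 1 above, where 13.6% of all genes were separate. Slc2a3, Aldoa, Aldoc and Ldhb passed in both genotypes. Of the members not called, Slc2a1, Hk3, Pfkm and Pfkp in control and Pkm and Pfkfb3 in Mbd3del passed with edgeR's newer estimator, and Slc2a1, Hk2, Hk3, Pfkp and Pfkfb2 in control and Slc2a1, Pkm, Pdk3, Pfkfb1 and Hif1a in Mbd3del passed in 1 or 2 of the 10 fits that left out a library. This comparison was added after the step-by-step comparisons had been seen. Hk3 was not tested in Mbd3del, and Eno2, Slc16a3 and Pdk4 in neither genotype, because they did not pass the expression filter. Of these, Hk3, Eno2 and Pdk4 passed under some other settings, as given below. Library values below are in CPM and in the order of mouse10360, mouse10361, mouse10365, mouse10376 and mouse10384 for Mbd3del and mouse10357, mouse10358, mouse10372, mouse10380 and mouse10381 for control. Errors of log2 fold changes are standard errors.

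**Figure D2:**
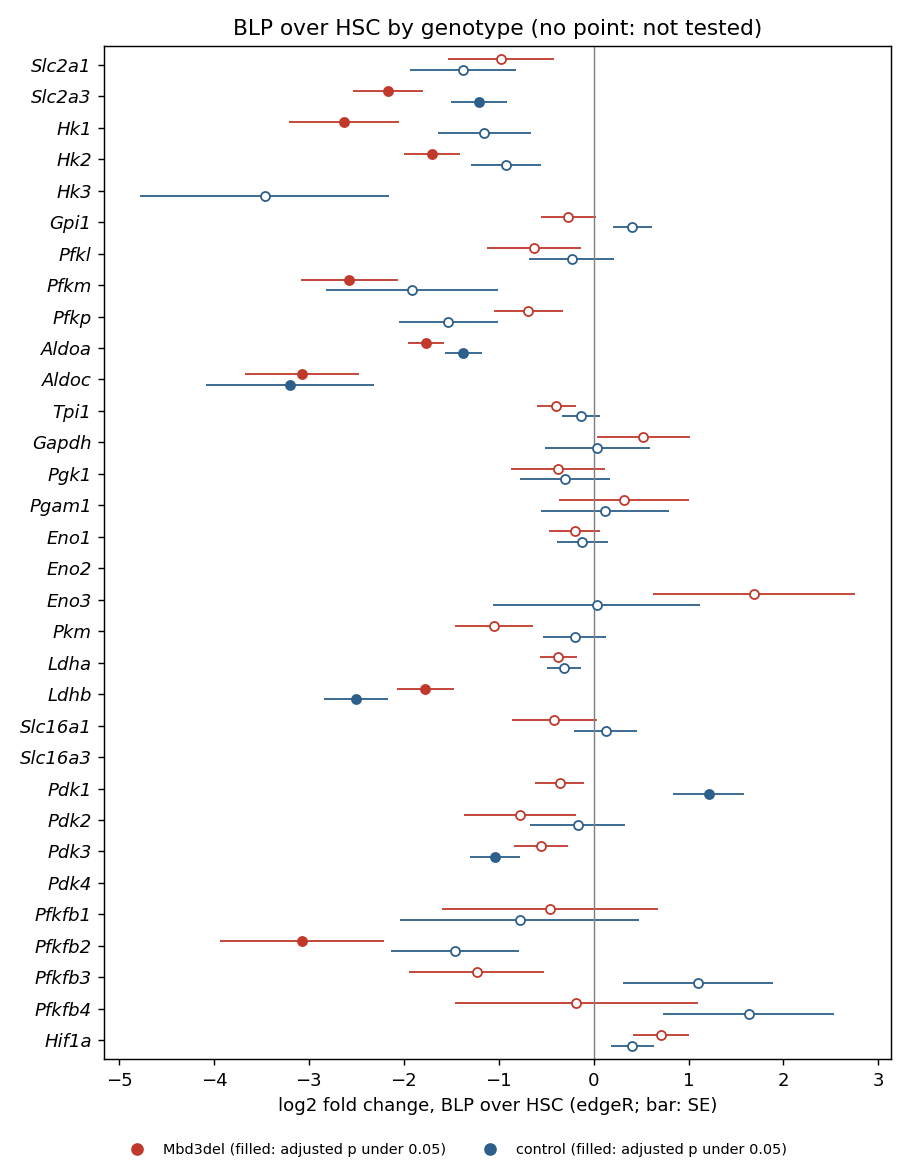
Log2 fold change of each member, BLP over HSC (x axis), with its standard error, Mbd3del (red, upper) and control (blue, lower). Filled points passed an adjusted p of 0.05 and lie left of 0, except Pdk1 in control at 1.21.

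Of the glucose transporters, Slc2a3 (GLUT3) was lower in BLPs in both genotypes and Slc2a1 (GLUT1) passed in neither by edgeR. In Mbd3del mice Slc2a3 was at 12.6, 31.6, 16.8, 17.9 and 34.1 CPM in BLPs and at 76.9, 70.6, 204, 128 and 111 CPM in HSCs. In control mice it was at 27.1, 33.7, 33.9, 25.2 and 17.5 CPM in BLPs and at 68.9, 64.4, 53.4, 58.5 and 93.9 CPM in HSCs. Every BLP library lay below every HSC library of its genotype. The log2 fold change was -2.16 ± 0.37 (adjusted p = 0.000706) in Mbd3del and -1.20 ± 0.29 (adjusted p = 0.0110) in control. The control call did not hold with the mouse as a block (adjusted p = 0.0515), in the joint fit of all 40 libraries (0.107) or without mouse10372 and mouse10381 (0.0643). Slc2a1 averaged 20.2 ± 17.8 CPM in Mbd3del BLPs and 46.3 ± 29.96 CPM in Mbd3del HSCs (SD, n = 5 each), with a log2 fold change of -0.97 ± 0.56 by edgeR (adjusted p = 0.259). It averaged 18.4 ± 13.4 CPM in control BLPs and 51.3 ± 27.5 CPM in control HSCs, with a log2 fold change of -1.37 ± 0.56 (adjusted p = 0.124). A call for 1 transporter only does not show that their changes differed. Slc2a1 took on average 60.0% of glucose transporter counts per kilobase in Mbd3del BLPs and 43.2% in Mbd3del HSCs. In control it took 52.6% in BLPs and 58.3% in HSCs. Without a length correction these shares were 43.8%, 27.6%, 37.2% and 40.9%, in the same order.

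Hexokinases phosphorylate glucose on entry, and 3 of their genes are members. Hk2, whose product binds mitochondria, took the largest mean share of hexokinase counts per kilobase in all 8 groups, at 58.6% to 81.9%. In Mbd3del mice Hk2 was at 20.8, 25.1, 32.03, 24.3 and 14.96 CPM in BLPs and at 72.5, 61.5, 117, 79.1 and 116 CPM in HSCs. Control libraries had 57.3, 44.9, 20.6, 36.2 and 27.3 CPM in BLPs and 32.7, 95.2, 74.5, 91.7 and 74.4 CPM in HSCs. The Mbd3del groups did not overlap (log2 fold change -1.70 ± 0.30, adjusted p = 0.000862), while control mouse10357 was higher in BLPs than in HSCs and the control difference of -0.92 ± 0.37 did not pass (adjusted p = 0.113). Hk1, the widely expressed isozyme, was at 4.01 to 10.4 CPM in Mbd3del BLPs and at 16.5 to 130.4 CPM in Mbd3del HSCs (-2.63 ± 0.58, adjusted p = 0.00476). In control mice Hk1 was at 5.48 to 20.03 CPM in BLPs and 19.6 to 54.6 CPM in HSCs, with a difference of -1.15 ± 0.49 that did not pass (adjusted p = 0.140). The difference between genotypes in these changes did not pass for Hk1 (-1.45 ± 0.73, adjusted p = 0.661) or Hk2 (-0.77 ± 0.45, adjusted p = 0.734).

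Hk3, a hexokinase known mainly from myeloid cells, was present early and near 0 late. In Mbd3del it was at 0.205 to 17.1 CPM in HSCs, 3.06 to 13.5 in LMPPs, 0 to 2.99 for ALPs and 0 to 0.154 CPM in BLPs. In control it was at 1.86 to 12.4 CPM in HSCs, 17.6 to 42.8 in LMPPs, 0.892 to 4.84 for ALPs and 0 to 1.79 CPM in BLPs. The highest level was thus in control LMPPs. As reported, edgeR called no change of Hk3, but some other settings did. In control, LMPP over HSC passed by DESeq2 (2.29, adjusted p = 0.00596) and with edgeR's newer estimator (0.0119). Control ALP over LMPP also passed by DESeq2 (-3.48, adjusted p = 7.93e-05) and with the newer estimator (0.00496). In Mbd3del, BLP over HSC passed with no expression filter (-7.35, adjusted p = 0.00129 by edgeR) and in the joint fit (0.000578). The 10 neutrophil and monocyte markers summed to 44.9 to 1701 CPM in Mbd3del and 102 to 414 CPM in control HSCs, to 637 to 2172 CPM in Mbd3del and 536 to 1200.4 CPM in control LMPPs, to 603 to 1954 CPM in Mbd3del and 232 to 963 CPM in control ALPs, and to 369 to 703 CPM in Mbd3del and 127 to 314 CPM in control BLPs. The Mbd3del ALP sums overlapped the Mbd3del LMPP sums, although Hk3 was lower in each of those ALP libraries than in any of those LMPP libraries. Of these markers Mpo had the highest mean in LMPPs and BLPs of both genotypes, while Elane and Ltf were at 0 in at least 4 of 5 libraries of every group. Their part in the Hk3 levels was not tested.

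Of the phosphofructokinases, which commit sugar to glycolysis, Pfkm (muscle type) was lower in BLPs in Mbd3del. It was at 5.15, 7.05, 6.75, 3.66 and 6.48 CPM in Mbd3del BLPs and at 30.2, 25.9, 48.2, 14.1 and 88.8 CPM in Mbd3del HSCs. In control mice it was at 27.5, 6.21, 0, 14.9 and 4.45 CPM in BLPs and at 97.01, 31.9, 31.1, 17.8 and 35.5 CPM in HSCs. The Mbd3del groups were separate (-2.57 ± 0.51, adjusted p = 0.00217), and the control groups overlapped through mouse10357 in BLPs (-1.91 ± 0.90, adjusted p = 0.192, against 0.0266 with the newer estimator and 0.0328 in the joint fit). Pfkp (platelet type) was at 12.5 to 50.2 CPM in Mbd3del BLPs and 43.7 to 66.6 CPM in Mbd3del HSCs (-0.69 ± 0.37, adjusted p = 0.223). In control it was at 5.63 to 40.6 CPM in BLPs and 50.6 to 89.05 CPM in HSCs, without overlap, and its difference of -1.53 ± 0.52 missed the threshold by edgeR (adjusted p = 0.0640). It passed with the mouse as a block (adjusted p = 0.0338), without scaling (0.0484), without an expression filter (0.0436), with the newer estimator (0.00846) and by DESeq2 (0.0156). Pfkl (liver type) differed by -0.63 ± 0.50 in Mbd3del and -0.23 ± 0.45 in control, neither of which passed (adjusted p = 0.427 and 0.809).

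Both aldolase genes were lower in BLPs in both genotypes. Aldoa (chromosome 7, 126795234 to 126800751, minus strand) was at 158, 257, 203, 226 and 185 CPM in Mbd3del BLPs and at 731, 742, 869.8, 800.4 and 915 CPM in Mbd3del HSCs. In control mice it was at 244, 412, 188, 302 and 293 CPM in BLPs and at 862, 630.1, 752, 672 and 1058 CPM in HSCs. No BLP library reached any HSC library, and the log2 fold change was -1.77 ± 0.19 (adjusted p = 1.16e-05) in Mbd3del and -1.37 ± 0.20 (adjusted p = 0.000232) in control, past the threshold under every alternative setting tried. Aldoc, the aldolase known from brain, was at 7.88, 0.846, 7.72, 4.63 and 12.6 CPM in Mbd3del BLPs and at 43.8, 30.9, 57.99, 59.4 and 151 CPM in Mbd3del HSCs (-3.07 ± 0.60, adjusted p = 0.00190). In control mice Aldoc was at 7.49, 0.239, 15.6, 8.69 and 0.278 CPM in BLPs and at 63.9, 24.2, 45.7, 54.96 and 143 CPM in HSCs (-3.20 ± 0.89, adjusted p = 0.0234). Its groups were again separate, although the control call was lost without the HSC library of mouse10381 (adjusted p = 0.0711) and without mouse10372 and mouse10381 (0.0981). Aldoa remained the main aldolase, at mean shares of 93.3% to 99.6% of aldolase counts per kilobase.

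The enzymes from glucose-6-phosphate isomerase down to pyruvate kinase, other than aldolase and phosphofructokinase, gave no calls by edgeR. Gpi1, Tpi1, Gapdh, Pgk1, Pgam1, Eno1, Eno3 and Pkm did not pass in either genotype, with log2 fold changes of -1.05 to 1.69 in Mbd3del and -0.30 to 0.41 in control. Pkm was the lowest of these in Mbd3del, at 40.1 to 129 CPM in BLPs and 64.4 to 315 CPM in HSCs (-1.05 ± 0.41, adjusted p = 0.0970), and it passed by DESeq2 (adjusted p = 0.0481) and with edgeR's newer estimator (0.0266). Eno2, the neuronal enolase, was above 0 in 1 of 5 Mbd3del BLP libraries, at 0.606 CPM, and at 0.337 to 11.2 CPM in Mbd3del HSCs. In control it was above 0 in 1 of 5 BLP libraries, at 0.148 CPM, and at 0.621 to 14.99 CPM in HSCs. With no expression filter, Eno2 was lower in BLPs of Mbd3del (adjusted p = 0.0275) and of control mice (0.00952). Under the same edgeR setting, Hk3 in Mbd3del (adjusted p = 0.00129) and Pdk4 in control (0.0122) were also lower in BLPs. In the joint edgeR fit Eno2 passed in Mbd3del (adjusted p = 0.0357) and in control (0.0128), and Pdk4 in control (0.0416). Eno2 in both genotypes and Hk3 in Mbd3del also passed in several of the fits that left out a library. Eno3, the muscle enolase, averaged 28.9% of enolase counts per kilobase in Mbd3del BLPs and 7.28% in Mbd3del HSCs, and 13.4% in control BLPs and 12.8% in control HSCs, with Eno1 counts uncertain as described. The ranges met, at 16.2% to 45.2% in Mbd3del BLPs and 0% to 23.6% in Mbd3del HSCs. In control they were 0% to 31.2% in BLPs and 7.96% to 17.2% in HSCs. The mean Eno3 shares depend on the length used. Per kilobase of the longest transcript they were 15.1% in Mbd3del BLPs and 3.50% in Mbd3del HSCs, and 6.52% in control BLPs and 5.95% in control HSCs. Without a length correction they were 12.1%, 2.70%, 5.17% and 4.60%, in the same order.

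Of the lactate dehydrogenase genes, Ldhb was lower in BLPs in both genotypes and Ldha passed in neither. Ldhb (chromosome 6, 142490249 to 142507957, minus strand) was at 61.9, 57.2, 73.7, 136 and 85.7 CPM in Mbd3del BLPs and at 353, 321, 226, 394 and 352 CPM in Mbd3del HSCs. Control levels were 35.8, 43.3, 115, 44.2 and 78.2 CPM in BLPs and 319, 294, 476, 443 and 396 CPM in HSCs. The groups were separate in both genotypes, with log2 fold changes of -1.77 ± 0.30 (adjusted p = 0.000632) in Mbd3del and -2.50 ± 0.34 (adjusted p = 0.000142) in control, past the threshold under every alternative setting tried. Ldha (chromosome 7, 46841475 to 46855627, plus strand) was at 380.1, 425, 342, 287 and 248 CPM in Mbd3del BLPs and at 401, 483, 629, 411 and 594 CPM in Mbd3del HSCs. In control mice Ldha was at 333, 444, 383, 339.5 and 235 CPM in BLPs and at 508, 406, 384, 393 and 613 CPM in HSCs. Its groups overlapped, and its differences of -0.37 ± 0.19 in Mbd3del and -0.31 ± 0.18 in control did not pass (adjusted p = 0.206 and 0.284). Slc16a1, encoding the lactate transporter MCT1, held 97.7% to 99.96% of monocarboxylate transporter counts per kilobase on average and passed in neither genotype (-0.42 ± 0.45 in Mbd3del and 0.13 ± 0.33 in control, adjusted p = 0.579 and 0.866). Slc16a3 was at most 6.11 CPM in any library.

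Of the pyruvate dehydrogenase kinases, neither Pdk1 nor Pdk3 passed in Mbd3del, while in control mice Pdk1 was higher and Pdk3 lower in BLPs. Pdk1 (chromosome 2, 71873224 to 71903858, plus strand) was at 70.2, 103, 52.1, 63.3 and 105 CPM in Mbd3del BLPs and at 98.3, 114, 166, 87.9 and 123 CPM in Mbd3del HSCs. In control mice it was at 114, 137, 106, 147 and 169 CPM in BLPs and at 79.6, 68.1, 56.5, 14.1 and 96.2 CPM in HSCs. The Mbd3del groups overlapped and the control groups did not, with log2 fold changes of -0.36 ± 0.26 (adjusted p = 0.380) in Mbd3del and 1.21 ± 0.37 (adjusted p = 0.0409) in control. The control call was lost in 7 of the 10 fits that left out a library, without scaling (adjusted p = 0.0743) and without mouse10372 and mouse10381 (0.165), and the difference between the genotypes' changes, -1.56 ± 0.46, did not pass (adjusted p = 0.418). Pdk3 (chromosome X, 93764607 to 93832201, minus strand) was at 118 to 171 CPM in Mbd3del BLPs and 112 to 332 CPM in Mbd3del HSCs (-0.55 ± 0.29, adjusted p = 0.211). Control libraries had 146, 98.9, 56.2, 96.5 and 83.2 CPM in BLPs and 237, 165, 133, 279 and 234 CPM in HSCs. Mouse10357 in BLPs exceeded mouse10372 in HSCs, and the fold change of -1.04 ± 0.26 passed (adjusted p = 0.0142), but not without mouse10372 and mouse10381 (0.0563). Pdk2 averaged 11.9 to 28.2 CPM over the groups and did not pass in either genotype. Pdk4 was above 0 in 2 of 5 Mbd3del and 3 of 5 control HSC libraries, and at 0 in every LMPP and BLP library. It was at 5.56, 0, 0, 1.64 and 0 CPM in Mbd3del HSCs. In control HSCs it was at 0, 5.17, 20.5, 0 and 12.1 CPM, the highest being from mouse10372 and mouse10381. Among ALPs it was above 0 only in control mouse10372 (10.4 CPM) and mouse10380 (0.110 CPM).

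The PFKFB enzymes make and break down fructose-2,6-bisphosphate, the activator of phosphofructokinase. Pfkfb2, the isozyme known from heart, was at 1.21, 0, 6.56, 2.80 and 3.70 CPM in Mbd3del BLPs and at 26.1, 48.1, 29.4, 6.15 and 30.96 CPM in Mbd3del HSCs. The groups overlapped through mouse10376 in HSCs, and the fold change of -3.07 ± 0.87 passed (adjusted p = 0.0215). It no longer did with the mouse as a block (0.0884), in the joint fit (0.113) or without the HSC library of mouse10361 (0.0645). In control mice Pfkfb2 was at 1.38 to 35.1 CPM in BLPs and 24.8 to 59.96 CPM in HSCs (-1.46 ± 0.67, adjusted p = 0.178). Pfkfb1, Pfkfb3 and Pfkfb4 passed in neither genotype, at group means of 3.36 to 11.1, 7.74 to 21.6 and 2.58 to 9.16 CPM. Hif1a was at 51.8 to 213 CPM in Mbd3del BLPs and 91.1 to 146 CPM in Mbd3del HSCs, and at 87.5 to 151 CPM in control BLPs and 89.3 to 103 CPM in control HSCs. Its differences of 0.71 ± 0.30 in Mbd3del and 0.41 ± 0.22 in control did not pass (adjusted p = 0.117 and 0.264).

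**Figure D3:**
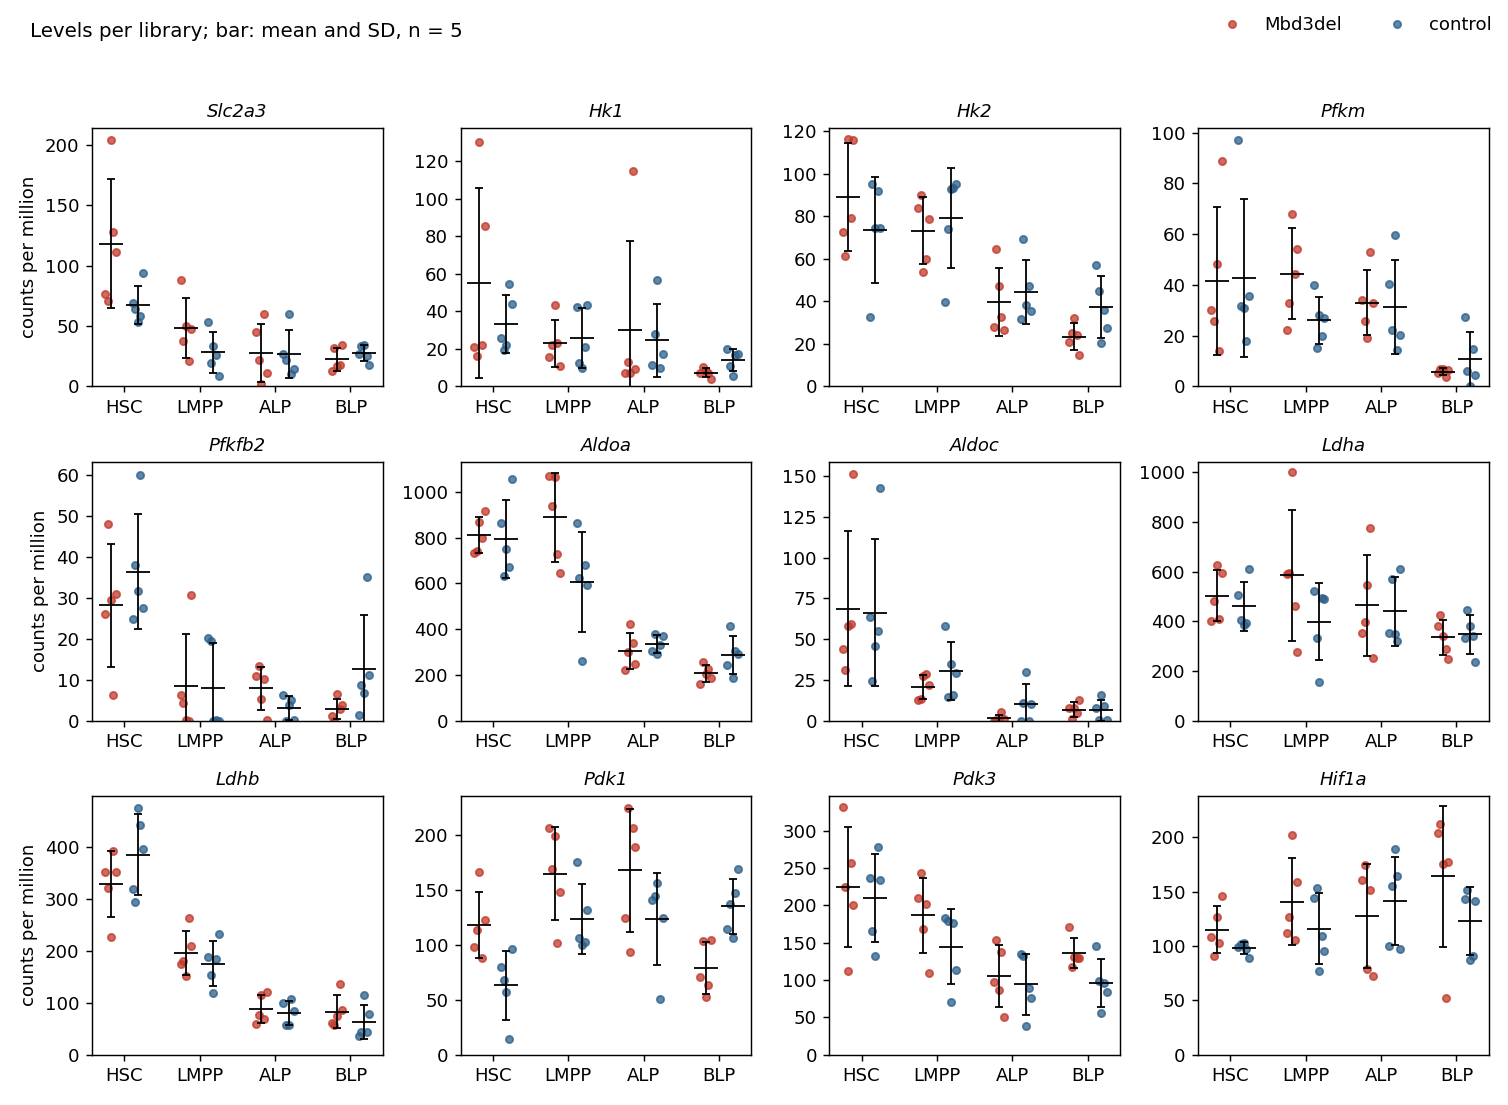
CPM per library (y axis) of 12 members in the 4 populations, Mbd3del (red) left of control (blue) in each, with the mean and SD of 5 libraries. Ldhb and Aldoc have their lowest means in ALPs and BLPs, Aldoa is lower in ALPs than in LMPPs on average, and Ldha spreads over overlapping ranges in all populations.

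Step by step, few members passed, and they differed between steps. At the LMPP over HSC step in Mbd3del, 1 of 30 members tested was lower and 0 were higher, against 3.75% of all genes lower, 2.99% higher and 6.74% in either direction. This was Aldoc, at 12.5, 13.3, 27.5, 28.4 and 21.9 CPM in Mbd3del LMPPs, below every Mbd3del HSC library (-1.62 ± 0.43, adjusted p = 0.0335). The call was lost in 5 of the 10 fits that left out a library, with adjusted p up to 0.126, and in the joint fit (0.45). Of 32 members, Aldoc lay below and Pgam1 above without overlap, where 7.45% of all genes were separate. In control, 1 of 29 was lower and 0 were higher, against 3.17% of all genes lower, 2.76% higher and 5.93% in either direction. This was Ldhb, at 188, 154, 119, 185 and 233 CPM in control LMPPs, below every control HSC library (-1.07 ± 0.21, adjusted p = 0.00780). It passed in each of the 10 fits that left out a library but not without mouse10372 and mouse10381 (adjusted p = 0.0514). Of 31 members, Ldhb and Pfkfb2 lay below and Hk3 and Pdk1 above without overlap, where 7.67% of all genes were separate. In Mbd3del the same step gave Ldhb -0.70 ± 0.24 (adjusted p = 0.100), and the difference between genotypes was 0.36 ± 0.31 (adjusted p = 1).

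At the ALP over LMPP step in Mbd3del, 1 of 28 members tested was lower and 0 were higher, against 1.07% of all genes lower, 1.11% higher and 2.18% in either direction. This was Aldoa, at 221, 299, 422, 338 and 248.9 CPM in Mbd3del ALPs and at 1069, 938, 1067, 729 and 644 CPM in Mbd3del LMPPs. The groups were separate (-1.46 ± 0.21, adjusted p = 0.00161), and the call held under every alternative setting tried. Aldoc, Hk3, Ldhb and Pgk1 also lay below without overlap, making 5 of 31 members, where 3.97% of all genes were separate. In control, 0 of 29 members passed by edgeR in either direction, against 0.469% of all genes lower, 0.469% higher and 0.938% in all. At an unadjusted p under 0.05 by edgeR there were 4 members, against 851 of 10871 genes. DESeq2 called 3 members, and its share over all genes is not given here. Aldoa was at 303, 379, 291, 331 and 371 CPM in control ALPs and at 865, 622, 261, 679.8 and 594 CPM in control LMPPs (-0.88 ± 0.27, adjusted p = 0.243). The low control LMPP library, mouse10372, also had the highest mitochondrial share of all libraries, 7.75%, and the lowest summed share of the 32 genes. Ldhb libraries of ALPs lay below those of LMPPs without overlap in both genotypes, with log2 fold changes of -1.07 ± 0.27 in Mbd3del (adjusted p = 0.0627) and -1.14 ± 0.31 in control (adjusted p = 0.135). Neither passed by edgeR, and both did by DESeq2 (adjusted p = 0.0101 in Mbd3del and 0.0218 in control). With Hk3 it was 1 of 2 members of 31 separate in control, where 2.75% of all genes were.

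At the BLP over ALP step in Mbd3del, 1 of 27 members tested was lower and 0 were higher, against 0.129% of all genes lower, 0.507% higher and 0.636% in either direction. This was Pfkm, at 3.66 to 7.05 CPM in Mbd3del BLPs and at 34.01, 25.9, 19.1, 53.1 and 32.8 CPM in Mbd3del ALPs (-2.43 ± 0.45, adjusted p = 0.0231). It was the only one of 31 members whose groups were separate, where 2.12% of all genes were. The call was lost with the mouse as a block (adjusted p = 0.159), in the joint fit (0.0854) and in 5 of the 10 fits that left out a library. In control 0 of 28 passed in either direction, against 0.0275% of all genes lower, 0.238% higher and 0.266% in all. DESeq2 also called 0 members. At an unadjusted p under 0.05 by edgeR there was 1 member (Pkm), against 474 of 10905 genes. No control group pair was separate for any of 31 members, where 1.25% of all genes were. The control Pfkm difference was -1.46 ± 0.90 (adjusted p = 0.998).

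The balance between isozymes was measured as each gene's share of its family's counts per kilobase in a library. In Mbd3del, Ldhb averaged 57.8% of lactate dehydrogenase in HSCs, then 43.5% in LMPPs, 30.3% among ALPs and 34.2% in BLPs. In control it averaged 63.6% in HSCs, then 49.7% in LMPPs, 28.9% among ALPs and 27.4% in BLPs. By mouse, the Mbd3del share was 25.5, 22.1, 31.3, 50.1 and 42.1% in BLPs and 64.97, 58.3, 43.2, 66.9 and 55.5% in HSCs, and the ranges met. The control share was 18.5, 17.03, 38.8, 21.5 and 41.2% in BLPs and 57.01, 60.4, 72.3, 70.4 and 57.7% in HSCs, without overlap. Whether Ldhb was the larger part in HSCs depends on the length used. Per kilobase of the longest transcript its mean share was 47.8% in Mbd3del and 53.7% in control HSCs, and of counts without a length correction 39.9% in Mbd3del and 45.6% in control HSCs. In ALPs and BLPs its mean share was under 50% by each of these, and the permutation p was the same. The exact permutation p (two-sided, 252 arrangements) was 0.0159 in Mbd3del and 0.00794 in control, the smallest this design allows. Adjusted over the 42 path-end share tests, the exact permutation values became 0.0741 in Mbd3del and 0.0667 in control, so neither passed.

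Of 21 shares tested in 10 genotype and step comparisons, 210 exact permutation tests in all, 0 passed after adjustment, the lowest adjusted value being 0.185. Even at the smallest p this unpaired test allows, at least 34 of these tests would have to share it for any to pass, and 9 did. For the path ends it took 7, and 5 did, so the absence of calls says little about the shares. Among the shares at an exact p of 0.00794, Pdk1 took 15.3% of pyruvate dehydrogenase kinase in Mbd3del BLPs and 31.6% in Mbd3del ALPs, and 22.2% in control LMPPs and 8.57% in control HSCs. Hk3 took 0.822% of hexokinase in Mbd3del ALPs and 14.2% in Mbd3del LMPPs, and 5.43% in control ALPs and 27.2% in control LMPPs. Pdk3 had the largest mean share of the kinases in all 8 groups, at 57.5% to 81.4%, though without a length correction in 5 of 8. It took 86.4, 76.2, 77.8, 78.7 and 75.9% in Mbd3del BLPs and 75.1, 63.5, 48.5, 60.9 and 52.3% in control BLPs, without overlap (exact permutation p = 0.00794, adjusted p = 0.185). Pdk1 took 15.3 ± 5.36% in Mbd3del BLPs and 28.8 ± 5.72% in control BLPs (SD, n = 5 each, exact permutation p = 0.0238, adjusted p = 0.263).

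**Figure D4:**
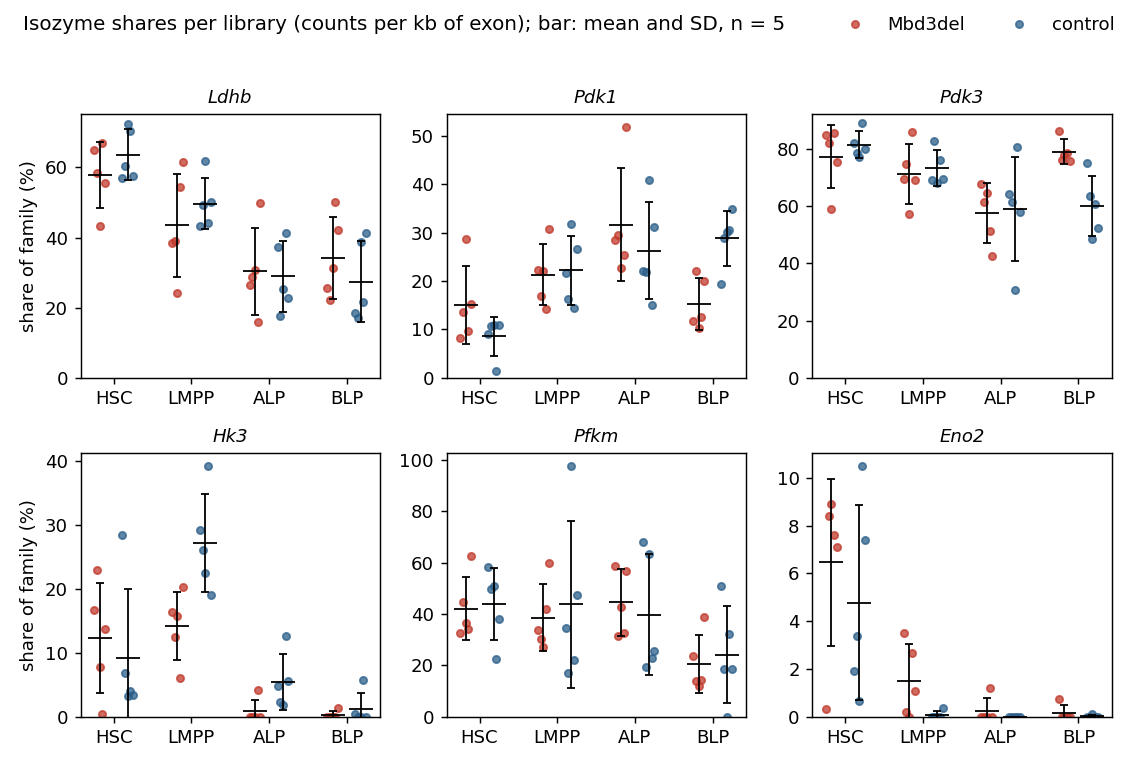
Share (%) of 6 genes in their isozyme family's counts per kilobase, per library, Mbd3del (red) left of control (blue) in each population, with mean and SD of 5 libraries. The mean Ldhb share is highest in HSCs in both genotypes, and in BLPs the Pdk3 share of each Mbd3del library exceeds that of each control library.

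Between genotypes, none of the 32 genes passed the threshold in any population. The numbers tested were 30 for HSCs, 29 for LMPPs, 26 for ALPs and 27 for BLPs, and edgeR and DESeq2 both called 0 in each. The HSC comparison called 0.0176% of all genes, with 0.0088% higher and 0.0088% lower. The LMPP comparison called 0.0183%, all of them lower, and the ALP comparison 0.0182%, all of them higher. The BLP comparison called 0.0743%, with 0.0557% higher and 0.0186% lower. The members' count of 0 is thus near the background. An unadjusted p under 0.05 by edgeR was found for 2 members in the HSC, 1 in the LMPP, 0 in the ALP and 2 in the BLP comparison. In HSCs these were Slc2a3, at 118 ± 53.6 CPM in Mbd3del and 67.8 ± 15.7 CPM in control (SD, n = 5 each, log2 fold change 0.71 ± 0.28 by edgeR, adjusted p = 0.955), and Pdk1, at 118 ± 30.03 CPM in Mbd3del and 62.9 ± 30.99 CPM in control (0.83 ± 0.37, adjusted p = 0.955). No member was separate in HSCs or ALPs, where 0.883% and 0.679% of all genes were. In LMPPs it was Hk3, at 11.5, 9.33, 9.64, 3.06 and 13.5 CPM in Mbd3del and 17.6, 18.1, 17.9, 42.8 and 18.3 CPM in control (-1.40 ± 0.55, adjusted p = 0.936). Its groups were separate, as were those of 1.31% of all genes, and it was the only such member of 31.

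In BLPs, Pdk1 levels of the Mbd3del libraries all lay under those of the control libraries, with a difference of -0.76 ± 0.25 (adjusted p = 0.367). It was the only one of 30 members whose groups were separate, against 2.07% of all genes in either direction. Pdk3 averaged 136 ± 20.5 CPM in Mbd3del BLPs and 96.1 ± 32.5 CPM in control BLPs (SD, n = 5 each, 0.53 ± 0.24 by edgeR, adjusted p = 0.571). Beside these, 18 cell cycle genes summed to 4997 to 6665 CPM in Mbd3del BLPs and 2593 to 4439 CPM in control BLPs. The neutrophil and monocyte markers were likewise without overlap there, as given above. The part of either in the kinase levels was not tested. In HSCs Ldhb differed by -0.29 ± 0.23, Ldha by 0.05 ± 0.18 and Aldoa by -0.04 ± 0.17, and in BLPs by 0.41 ± 0.38, -0.03 ± 0.19 and -0.46 ± 0.21, in the same order. Missing the threshold does not show that these levels were alike.

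**Figure D5:**
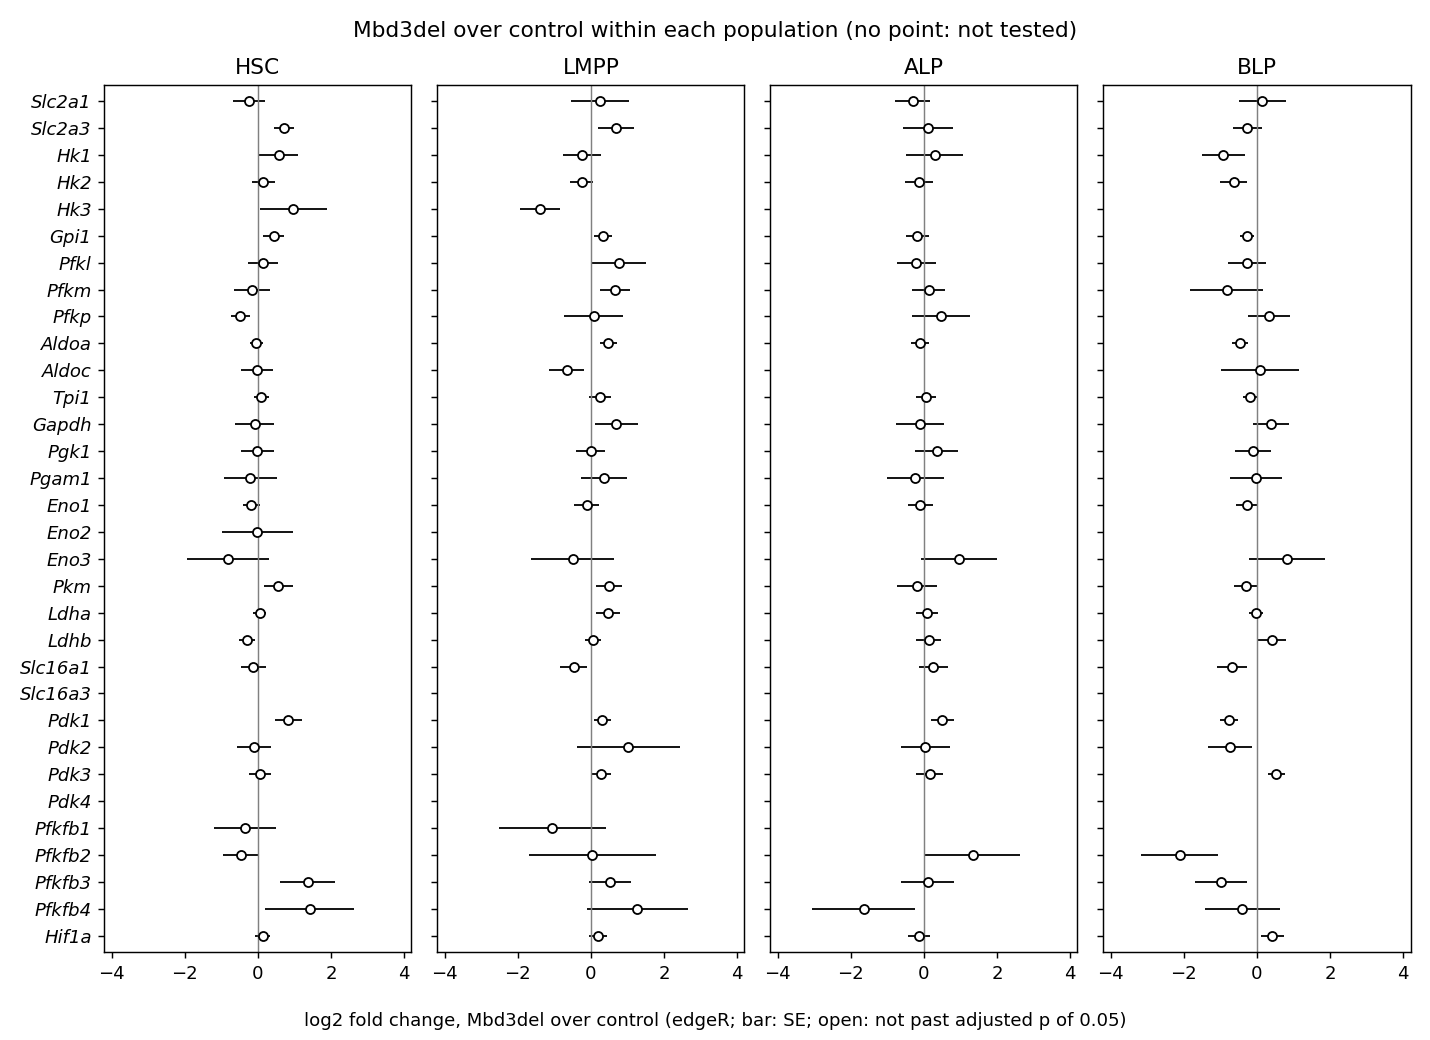
Log2 fold change of each member, Mbd3del over control (x axis), with its standard error, in each population. All points are open, since none passed an adjusted p of 0.05.

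Whether a step differed between genotypes was tested as an interaction. No member passed at the 3 steps, where 0% of all genes passed at each and 1, 0 and 1 members had an unadjusted p under 0.05 by edgeR, in step order. Nor did any pass over the whole path, where 0.0472% of all genes passed (0.0315% higher and 0.0157% lower) and 4 members had an unadjusted p under 0.05. These 4 were Slc2a3, Hk3, Pdk1 and Pfkfb3. The counts of all genes at that unadjusted p are not given here, so no excess of members is read from these interaction counts. DESeq2 also called 0 in each.

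Genes around the pathway were read from lists of related enzymes. At the path ends edgeR called 19.3% of all genes in Mbd3del and 15.7% in control. Of 11 genes for pyruvate entry into mitochondria, edgeR called 0 at the path ends in Mbd3del (10 tested, 0 with an unadjusted p under 0.05) and 0 in control (9 tested, 1 with an unadjusted p under 0.05). Of 12 other HIF targets it called 0 in Mbd3del (8 tested, 0 unadjusted) and 0 in control (10 tested, 0 unadjusted). Of 7 pentose phosphate genes, all tested, only Pgls (6-phosphogluconolactonase) passed. It was at 459 ± 121 CPM in Mbd3del BLPs and 81.3 ± 33.1 CPM in Mbd3del HSCs (2.72 ± 0.29, adjusted p = 1.19e-05), and at 371 ± 216 CPM in control BLPs and 56.2 ± 19.2 CPM in control HSCs (2.80 ± 0.40, adjusted p = 0.000233). Of 8 HIF regulators, 6 tested in each genotype, Egln1, a prolyl hydroxylase that marks HIF-1α for degradation, was higher in BLPs in both. It was at 65.1 ± 6.07 CPM in Mbd3del BLPs and 38.5 ± 11.3 CPM in Mbd3del HSCs (0.97 ± 0.29, adjusted p = 0.0293), and at 98.2 ± 6.55 CPM in control BLPs and 32.05 ± 15.7 CPM in control HSCs (1.71 ± 0.33, adjusted p = 0.00213).

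Of 22 further glycolysis and lactate genes, 10 were tested in each genotype. In Mbd3del 1 was higher and 2 were lower in BLPs, against 9.48% of all genes higher and 9.83% lower. In control 1 was higher and 1 lower, against 7.34% of all genes higher and 8.33% lower. Ldhd, a mitochondrial D-lactate dehydrogenase whose exons overlap those of Znrf1 on the other strand, had 0 counts in all BLP libraries, and averaged 11.5 ± 8.88 CPM in HSCs of Mbd3del mice and 10.3 ± 5.38 CPM in those of controls. Slc2a6, a sugar transporter of lysosomes, was at 3.67 to 14.7 CPM in Mbd3del BLPs and at 0 to 0.306 CPM in Mbd3del HSCs. Bpgm, encoding bisphosphoglycerate mutase, was lower in Mbd3del BLPs (-1.25 ± 0.41, adjusted p = 0.0452), and Tigar, a fructose-2,6-bisphosphatase, was higher in control BLPs (3.31 ± 1.005, adjusted p = 0.0384). A call in only 1 genotype does not show that the genotypes differed. Over the same path ends, 16 of 18 cell cycle genes were higher in Mbd3del BLPs and 12 of 18 in control BLPs, and 0 were lower.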

How the data were processed

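RNA-seq libraries of 40 sorted cell pools from 10 mice were compared. The authors deposited raw read counts per gene and per repeat region in 1 table (128910 rows). Per the submitters' processing notes, the tools were STAR 2.5.2b (alignment) and HTSeq 0.6.1p1 (counting), and the build was GRCm38. No source used here states the annotation, the strand setting or the treatment of multiply aligned reads. The 79325 repeat rows were left out of totals and tests. Here each comparison was fitted with edgeR 4.0.16 (R 4.3.3, TMM scaling, genes kept by a minimum count of 10 and a total of 15, robust quasi-likelihood F test) on all genes of its own libraries, with Benjamini-Hochberg adjustment over all genes tested and a threshold of 0.05. The SE is the log2 fold change over the root of F. DESeq2 1.42.0 was an alternative. Fits were tested on simulated data. CPM are counts over summed gene counts, and lengths and overlaps come from the GENCODE annotation of GRCm38. Isozyme shares were compared with two-sided exact permutation tests, without pairing libraries by mouse. The libraries of both stages of a step come from the same animals, per the labels, and deviations of same-mouse libraries correlated at -0.185 to 0.214 (median 0.0397 over 10225 genes, 40 pairs). Replicates are mice. All 32 members are named. From each other list up to 4 called genes are named, ordered by fold change, if their mean reached 5 CPM. The members and lists were chosen with earlier results of these data known. Intervals of counting are not given, since the reads carry no molecular identifiers.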

Additional observations from a re-analysis of the deposited data

Results flagged for a closer look

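In 80 groups of 5 libraries, covering the 10 members called anywhere, 7 had a library far from the other 4 by Dixon's criterion, where chance gives about 1 in 20. Aldoc was at 151 CPM in Mbd3del HSC mouse10384 (others 30.9 to 59.4) and at 4.98 CPM in Mbd3del ALP mouse10376 (others 0 to 0.991). Hk1 was at 115 CPM in the same Mbd3del ALP library (others 6.97 to 12.9). Pfkfb2 was at 30.8 CPM in Mbd3del LMPP mouse10384 (others 0 to 6.32) and at 35.1 CPM in control BLP mouse10380 (others 1.38 to 11.1). Pdk3 was at 171 CPM in Mbd3del BLP mouse10360 (others 118 to 131). Pfkm was at 97.0 CPM in control HSC mouse10357 (others 17.8 to 35.5).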

How the results depend on the processing

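The counts of members called by genotype (4 populations) and by interaction were 0 under every setting tried. Counts at the steps moved, and the shares of all genes called under the other settings are not given. For LMPP over HSC in Mbd3del (1 call), no scaling, no expression filter and the newer edgeR estimator gave 2, DESeq2 3 and the joint fit 0. For the same step in control (1 call), DESeq2, no filter, the newer estimator and the joint fit gave 2, and leaving out mouse10372 and mouse10381 gave 0. For ALP over LMPP in Mbd3del (1 call), no scaling and the joint fit gave 2, DESeq2 3 and the newer estimator 4, and in control (0 calls) the newer estimator gave 1, the joint fit 2 and DESeq2 3. For BLP over ALP in Mbd3del (1 call), DESeq2 gave 2, and the joint fit and the replicate block 0. For BLP over HSC in control (6 calls, added after seeing the data), the newer estimator gave 10 and leaving out mouse10372 and mouse10381 gave 3. The block with the mouse changed no other count by over 1.5 times. It lost Slc2a3 and gained Pfkp for BLP over HSC in control. Leaving out 1 library gave 0 to 2 calls at LMPP over HSC in Mbd3del (0 without HSC mouse10376, HSC mouse10384 or LMPP mouse10361, and 2 without HSC mouse10365) and 1 to 3 in control (3 without LMPP mouse10372, and 2 without HSC mouse10357 or LMPP mouse10381). It gave 1 to 3 at ALP over LMPP in Mbd3del (3 without ALP mouse10376, 2 without ALP mouse10384) and 0 to 1 in control (1 without LMPP mouse10372 or ALP mouse10380). It gave 0 to 1 at BLP over ALP in Mbd3del (0 without ALP mouse10360, ALP mouse10376, BLP mouse10360, BLP mouse10361 or BLP mouse10384), 7 to 12 for BLP over HSC in Mbd3del and 5 to 9 in control. The share tests can hardly pass in this design, so nothing about their stability is read from their counts; leaving out 1 library gave 0 to 3 shares for BLP over HSC in Mbd3del (3 without HSC mouse10376). No called member changed direction. The cause of these changes was not tested. Low CPM values of the scarce isozymes rest on few counts, since 3 counts are up to 1.01 CPM. The part of depth in these changes was likewise not tested.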
